A study of Homo sapiens with 6 samples.

Results

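Followed here were 34 genes of nucleolar and ribosome biogenesis that are commonly listed as targets of MYC, out of 58735 genes in the table of counts. The members were taken by gene symbol, each symbol matched 1 gene, and all 34 had enough counts to be among the 15754 genes tested. The nucleolus is the compartment in which ribosomal RNA is transcribed by RNA polymerase I, cut and chemically modified, and packed with ribosomal proteins into the small and large ribosomal subunits. MYC, a transcription factor that binds DNA together with its partner MAX, is known to activate many genes of this pathway, along with genes for polyamine and nucleotide synthesis that growing cells need. The comparison asks whether these genes differ between A549 cells that overexpress IL17D, a cytokine gene of the IL-17 family, and control cells.

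RNA-seq was performed on A549, a human lung carcinoma line known to lack functional CDKN2A. The control cells carried the empty vector, and the other cells carried a lentiviral vector with the IL17D open reading frame, amplified from cDNA of H82, a small cell lung cancer line. According to its name, that vector holds a human PGK promoter, an IRES and GFP. There were 3 libraries in each group, both grown in RPMI1640 with serum, and neither the labels nor the methods say whether they came from separate cultures or transductions, or from pooled cells or clones, so the p-values measure the spread between these libraries, which may be technical. Totals of counted reads ran from 14319398 to 16521021 per library, and a count of 0 in a library allows up to 3 counts, 0.182 to 0.210 CPM (reads scaled to a common library total), for counting error only. IL17D itself had 1.48, 1.24 and 2.11 CPM in control cells and 1901, 1956 and 1876 CPM in IL17D-overexpressing cells. In A549 cells the epithelial markers KRT8, KRT18 and KRT7 were abundant, EPCAM was near 1 CPM and KRT19 under it, CDKN2A had no count, and 11 of 13 markers of blood, vessel, connective tissue and neuroendocrine cells averaged under 1 CPM. The summed level of those 13 markers was 29.7 to 30.8 CPM in control and 28.2 to 31.5 CPM in IL17D-overexpressing libraries, most of it COL1A1 with a log2 fold change of -0.15 (edgeR adjusted p = 0.584). SYP, a marker of neuroendocrine cells, was higher in all IL17D-overexpressing libraries, 6.81 to 8.13 CPM, than in the control libraries, 4.98 to 6.43 CPM (log2 fold change 0.38, unadjusted p = 0.0193 and adjusted p = 0.303 in edgeR). The part of these markers in the results was not tested. Of the 7 tested epithelial and A549 markers, 2 passed the test, CDH1 and AKR1C1, both lower in IL17D-overexpressing cells (log2 fold changes -0.28 and -0.30), and their part in the results was not tested either.

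MYC with MAX is known to bind the canonical E-box, CACGTG, whose letters read the same on both strands. RefSeq promoter windows (build GRCh38.p14), which run from 250 bases before to 50 bases after a listed start, were at hand for 27 of the 34 members, 36 windows in all since some genes have more than 1 listed start. CACGTG was found in a window of 15 of these 27 members (55.6%), against 8.77% of all 27305 genes with a window and 12.7% of 10126 tested protein-coding genes. The members were chosen as listed targets of MYC, which binds this motif, so the difference may partly follow from that choice. The related letters CACGCG, searched on both strands as CACGCG or CGCGTG, were found for 6 of the 27 members (22.2%), for 22.4% of the tested protein-coding genes and for 13.5% of all genes with a window. BOP1, NOLC1, NOP58, RRP12, RRS1, TCOF1 and URB2 had no window. Which of the listed starts A549 cells use was not measured, and a match of letters does not show binding.

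The windows of 4 members with the motif are shown, DDX21 and ODC1 because their counts had the smallest p-values of the members that have it, and FBL and SRM because their counts hardly differed between the groups. Capitals mark CACGTG, and each sequence reads from 5′ to 3′ along its gene's strand.
DDX21 (chr10:68956397-68956696, plus strand): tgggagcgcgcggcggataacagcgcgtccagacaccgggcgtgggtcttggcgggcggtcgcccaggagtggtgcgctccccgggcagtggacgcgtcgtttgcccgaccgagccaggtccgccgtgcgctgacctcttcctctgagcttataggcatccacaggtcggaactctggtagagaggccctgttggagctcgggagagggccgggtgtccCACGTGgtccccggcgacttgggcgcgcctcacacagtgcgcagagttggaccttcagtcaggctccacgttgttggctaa
ODC1 (chr2:10447963-10448262, minus strand): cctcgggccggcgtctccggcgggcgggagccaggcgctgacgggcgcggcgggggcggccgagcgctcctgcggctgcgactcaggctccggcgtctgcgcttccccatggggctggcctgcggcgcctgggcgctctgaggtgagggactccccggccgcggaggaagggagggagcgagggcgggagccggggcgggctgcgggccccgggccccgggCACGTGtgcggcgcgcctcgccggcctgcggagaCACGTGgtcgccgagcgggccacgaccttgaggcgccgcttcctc
FBL (chr19:39846330-39846629, minus strand): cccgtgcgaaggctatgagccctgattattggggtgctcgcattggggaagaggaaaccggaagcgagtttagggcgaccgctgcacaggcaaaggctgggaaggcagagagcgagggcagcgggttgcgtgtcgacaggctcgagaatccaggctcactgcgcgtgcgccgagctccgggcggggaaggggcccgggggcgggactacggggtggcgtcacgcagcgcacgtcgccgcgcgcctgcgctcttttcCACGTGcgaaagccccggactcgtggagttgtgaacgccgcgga
SRM (chr1:11059969-11060268, minus strand): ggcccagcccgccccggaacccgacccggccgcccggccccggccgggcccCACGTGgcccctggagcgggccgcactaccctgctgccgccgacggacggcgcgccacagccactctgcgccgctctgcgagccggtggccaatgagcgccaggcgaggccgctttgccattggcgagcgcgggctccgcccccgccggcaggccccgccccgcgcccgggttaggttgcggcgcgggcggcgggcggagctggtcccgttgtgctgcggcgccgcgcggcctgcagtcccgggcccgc
In ODC1 a pair of motifs lay at -29 and 5, counting the start site as 0 and giving the first base of the motif. This ODC1 start lies 492 bases inside the gene as GENCODE 29 draws it, and that of DDX21 519 bases inside, and the windows at the outer listed starts of these genes held no CACGTG. FBL had its motif at 6, and SRM had it at -199.

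**Figure D1:**
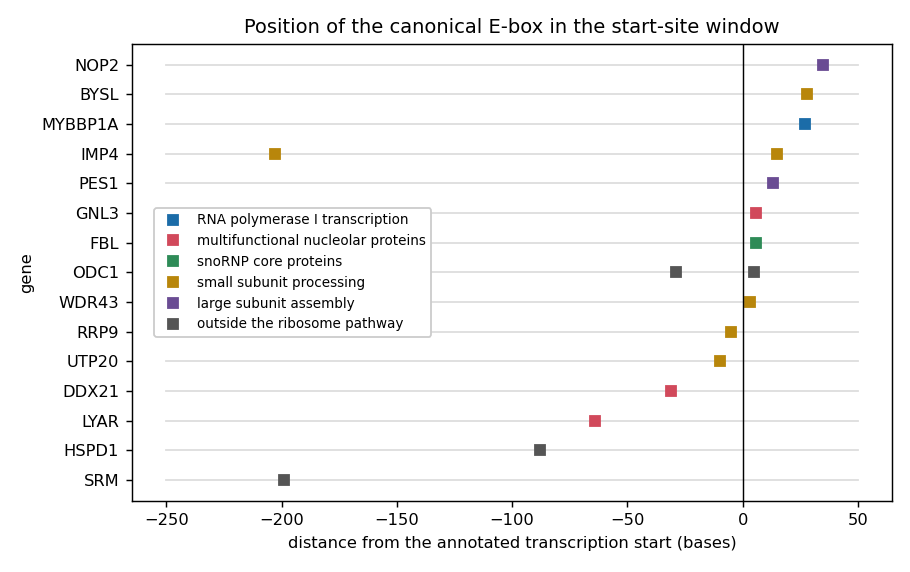
Position of each CACGTG (squares, coloured by the role of the gene) in bases from the listed start site (0) for the 15 members that have one, with grey lines for the window searched. Of 17 motifs, 13 lay within 50 bases of the start site, and the others were those of SRM, HSPD1 and LYAR and the outer one of IMP4.

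The motifs lay mostly near the start site. Of the 17, 13 in 12 genes lay within 50 bases of it and 9 lay at or after it. Positions of CACGTG in windows of other genes were not examined, so this may not be particular to the members. The members with the motif and those without it had close medians. The median log2 fold change was 0.050 for the 15 members with CACGTG, 14 of them above 0, and 0.045 for the 12 without, 9 of them above 0. For the 7 without a window it was 0.084. These medians are a description and were not tested.

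All 34 members were expressed. Levels between genes are given per length, as CPM per kb of exon. The length counts all annotated exons of a gene, so a gene expressed mainly as a shorter transcript gets too low a value. In control cells NPM1, the nucleolar chaperone nucleophosmin, was highest with 262 ± 6.73 CPM per kb (SD, n = 3), next to HSPD1, the mitochondrial chaperonin HSP60, with 253 ± 3.22. NCL, the RNA-binding protein nucleolin, followed with 126 ± 1.42, and FBL, the methyltransferase of box C/D snoRNPs, with 97.2 ± 0.248. NPM1 and HSPD1 did not differ beyond their spread, whereas NCL lay clearly under both. The other well counted members lay between 6.40 ± 0.195 CPM per kb for WDR12 and 76.8 ± 1.22 for ODC1. The place of WDR12 rests on its 9098 exon bases. Not divided by length, it had 58.2 CPM in control cells, above LYAR with 34.8 CPM. Which transcripts the cells made was not measured. PPAN with 1.66 ± 0.464 and NOP2 with 0.289 ± 0.153 CPM per kb stood far under the rest.

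Both low genes share exons with a longer gene on their own strand. In the GENCODE 29 annotation, whose coordinates and exon lengths were those of the table for all 34 members, 54.4% of the exon bases of NOP2 also belong to AC006064.6, and 56.0% of those of PPAN belong to the readthrough gene PPAN-P2RY11. Neither of these longer genes had a count in any library. Whether reads on the common exons were left uncounted was not tested, and the values of NOP2 and PPAN are uncertain. NOP2, which methylates ribosomal RNA of the large subunit, had only 12 to 31 counts in a library, and PPAN, a factor of the same subunit, had 47 to 84. Of the other members, NIP7 shares 20.2% of its exon bases with COG8 on the opposite strand and NOP16 overlaps opposite-strand genes to a like degree. RRS1 shares 11.4% of its exon bases with AC009879.2 and PA2G4 12.1% with AC034102.2, both on the same strand and without a count in any library, and PA2G4 shares 11.4% with genes on the opposite strand. For the remaining members both shares were lower than these, and the sources used here do not say whether counting used strand. Processed pseudogenes held 2.90% of the reads of PA2G4 and its copies together, 1.73% of those of NPM1 and 1.46% of those of HSPD1, and under 0.2% for each of the other members.

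**Figure D2:**
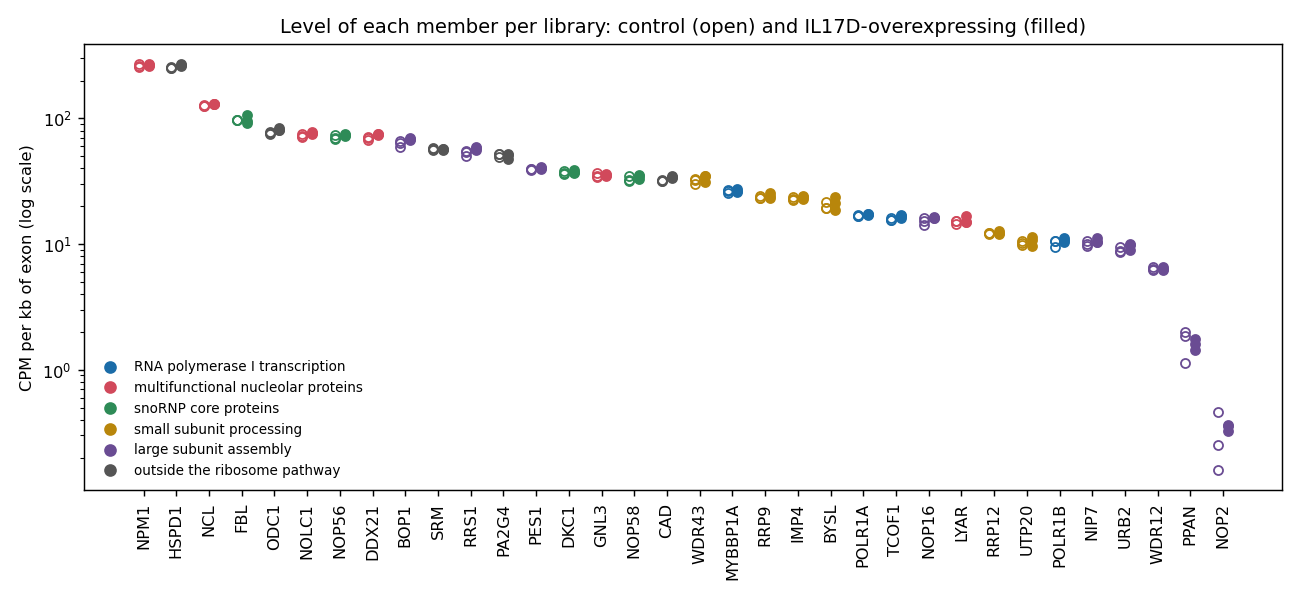
Level of the 34 members in CPM per kb of exon on a log axis, 1 open circle per control library and 1 filled circle per IL17D-overexpressing library, ordered by the control mean and coloured by role. NPM1 and HSPD1 lead and NOP2 and PPAN lie under the rest, while the groups differ little beside the distances between genes.

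MYC was higher in IL17D-overexpressing cells. The members lay slightly and mostly on the same side, without any of them passing the test. A link between MYC and the members was not tested. MYC had 192, 191 and 187 CPM in control cells and 227, 225 and 222 CPM in IL17D-overexpressing cells, with no overlap between the groups, and the log2 fold change was 0.24 (SE 0.037, edgeR adjusted p = 6.3e-05). Of the 34 members, 30 had a log2 fold change above 0 and 4 below 0, where 49.9% of all 15754 tested genes were above 0. The median of the members was 0.060, about 4.24% more, and that of all tested genes was -0.00044. The members were chosen with earlier results of these data known, which limits what these shares show. None of the members passed an adjusted p of 0.05 in the quasi-likelihood test of edgeR, which called 1.58% of all tested genes. The smallest adjusted p of a member was 0.118, that of DDX21. DESeq2's Wald test and limma voom called none either.

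At an unadjusted p under 0.05, edgeR called 8 members, DDX21, BOP1, CAD, RRS1, ODC1, HSPD1, NOLC1 and NOP56, all of them higher in IL17D-overexpressing cells. That is 23.5% of the members, against 5.59% of all tested genes called in that direction. No member was called in the other direction, in which 5.99% of all tested genes were. Under DESeq2 the count was 7 and under limma voom 9, and without control replicate 2 it was 5. In 9 members all IL17D-overexpressing libraries lay above all control libraries, namely 26.5% of the members against 7.48% of all tested genes. In no member did they all lie below, as they did in 8.31% of all tested genes. Since errors shrink with the number of counts, the members were also set beside the 5853 tested genes with at least the control level of LYAR in CPM not divided by length, where LYAR is the lowest of the members other than NOP2 and PPAN, a choice made after the values were seen. Of these genes, 52.7% were above 0, 8.47% were called higher at an unadjusted p under 0.05, and 10.1% had libraries that did not overlap in that direction. In bulk RNA, a transcript made by more cells and a transcript made in larger amounts per cell cannot be told apart.

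**Figure D3:**
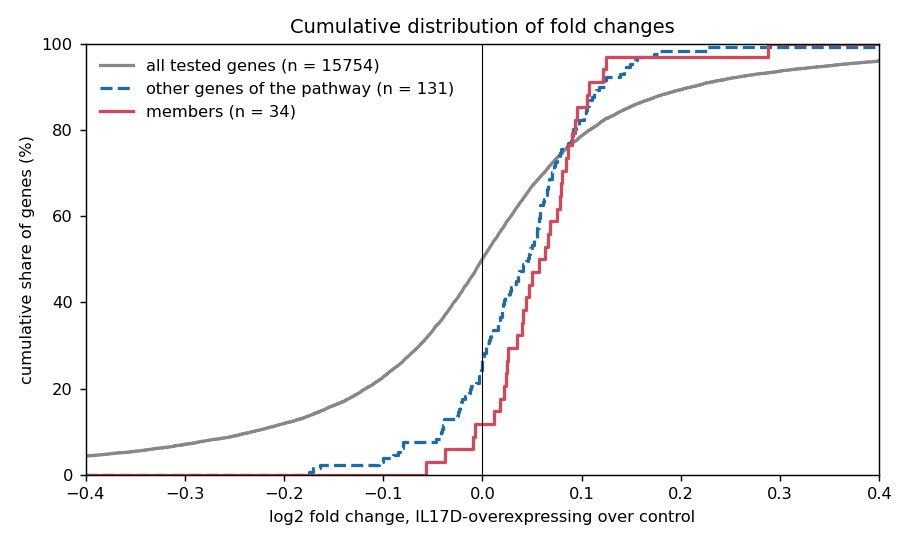
Cumulative share of genes (vertical axis, %) by log2 fold change of IL17D-overexpressing over control cells (horizontal axis, shown from -0.4 to 0.4) for all 15754 tested genes, the 131 tested other genes of the pathway and the 34 members. The curve of the members lies mostly above 0, with a median of 0.060 and 4 members below 0. That of all tested genes is centred at 0 and wider. Quartiles were 0.025 and 0.086 for the members and -0.087 and 0.081 for all tested genes. For the 5853 tested genes with at least the control level of LYAR, which are not drawn, they were -0.042 and 0.052.

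The differences were small. For the 32 members other than NOP2 and PPAN, the log2 fold changes lay between -0.037 and 0.12, and their 95% intervals lay between -0.12 and 0.23, so that a change of 0.23 or more on the log2 scale is outside the interval of each of them. The interval of MYC was 0.17 to 0.32. The share of all counted reads that fell on the 34 members was 0.724%, 0.723% and 0.727% in the control libraries and 0.750%, 0.750% and 0.754% in the IL17D-overexpressing libraries. Their 95% Wilson intervals, which cover counting error only, lay between 0.719% and 0.731% in control and between 0.746% and 0.758% in IL17D-overexpressing libraries. Abundant genes weigh most in this share. Of the 117653 member counts in control replicate 1, HSPD1 held 17362, NPM1 16106 and NCL 14390. Such shares were not taken for other sets of genes. In the control libraries 7 to 11 of the 34 members lay above their own mean over all libraries, and in the IL17D-overexpressing libraries 24 to 26 did. Since that mean is taken over the same libraries, these counts largely restate the signs of the fold changes. They were not set beside all tested genes.

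**Figure D4:**
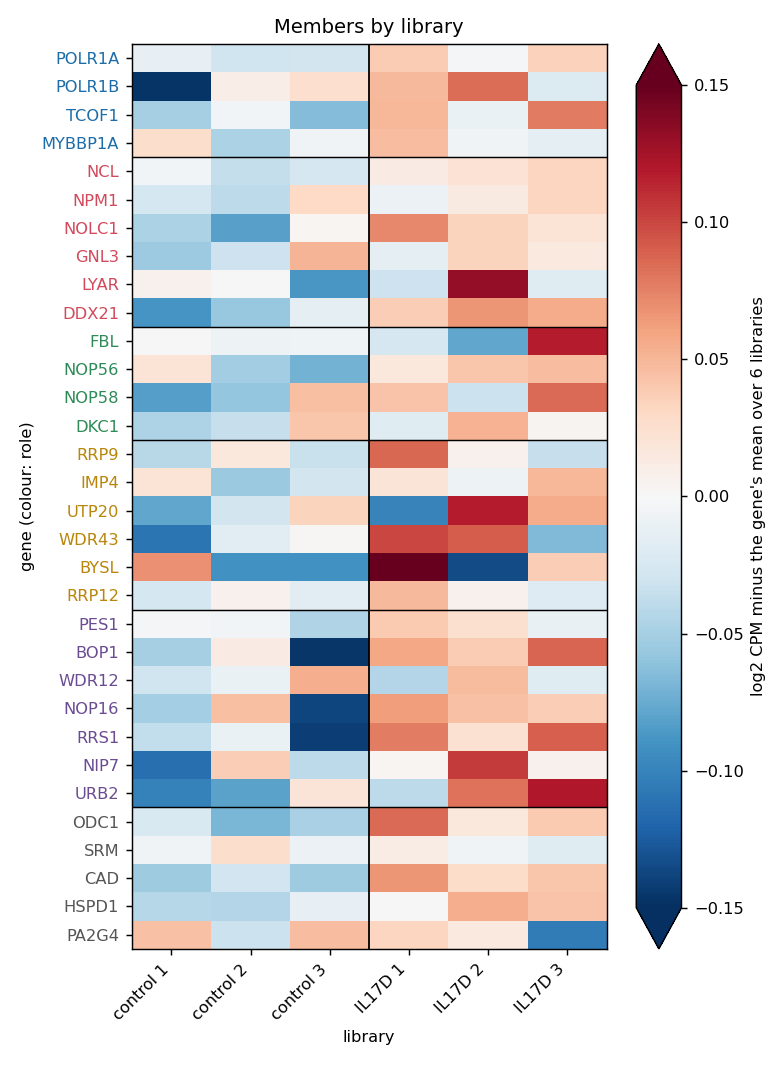
Log2 CPM of the 32 well counted members in each library, relative to the gene's mean over the 6 libraries (colour, limits at -0.15 and 0.15), with genes grouped by role. Red prevails in the IL17D-overexpressing libraries and blue in the control libraries, with exceptions such as PA2G4, SRM and WDR12.

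Transcription of ribosomal RNA is represented by 4 members, all with log2 fold changes above 0 (median 0.061) and none called at an unadjusted p under 0.05. TCOF1, the treacle protein that assists RNA polymerase I, had 178, 184 and 176 CPM in control cells and 191, 183 and 195 CPM in IL17D-overexpressing cells, and the log2 fold change was 0.079 (SE 0.039, edgeR adjusted p = 0.433). Control replicate 2 of TCOF1 overlapped IL17D replicate 2. POLR1B, the second largest subunit of the polymerase, had 59.8, 66.7 and 67.4 CPM in control cells and 68.5, 70.2 and 65.3 CPM in IL17D-overexpressing cells, which overlapped as well, with a log2 fold change of 0.075 (SE 0.056, edgeR adjusted p = 0.684). Its lowest value was that of control replicate 1. POLR1A, the largest subunit, had 228, 226 and 226 CPM in control cells and 237, 229.9 and 236 CPM in IL17D-overexpressing cells, without overlap but only 0.046 apart on the log2 scale (adjusted p = 0.692 from edgeR). MYBBP1A, a nucleolar MYB-binding protein, had a log2 fold change of 0.018, and its sign turned without control replicate 2 or IL17D replicate 1.

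The multifunctional nucleolar proteins held the member with the smallest p. DDX21, an RNA helicase that acts in ribosomal RNA transcription and processing, had 341, 348 and 359 CPM in control cells and 372, 379 and 377 CPM in IL17D-overexpressing cells. All IL17D-overexpressing libraries of DDX21 lay above all control libraries, and its log2 fold change was 0.11 (SE 0.033, edgeR adjusted p = 0.118). Without control replicate 3, the highest of the control values, the adjusted p of DDX21 in edgeR's test was 0.0457, and it was the only member called in any alternative. NOLC1, a chaperone of snoRNPs, had 287, 279.9 and 297 CPM in control cells and 312, 303 and 301 CPM in IL17D-overexpressing cells, again without overlap, with a log2 fold change of 0.084 (SE 0.035, edgeR adjusted p = 0.322). NCL had 886, 866 and 873 CPM in control cells and 896, 902 and 908 CPM in IL17D-overexpressing cells, also without overlap, with a log2 fold change of 0.044 and an unadjusted p of 0.124 in edgeR's test across all genes. NPM1, the highest member per length, had 991, 983 and 1031 CPM in control cells and 1004, 1019 and 1032 CPM in IL17D-overexpressing cells, and its groups overlapped, with a log2 fold change of 0.024 (SE 0.028, edgeR adjusted p = 0.831). The GTPase nucleostemin, GNL3, and the zinc-finger protein LYAR had log2 fold changes of 0.022 and 0.057, with overlap between the groups.

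The snoRNPs modify ribosomal RNA at sites chosen by base pairing of their snoRNA. Of the core proteins, FBL catalyses methylation in the box C/D particles, NOP56 and NOP58 help to build those particles, and DKC1, dyskerin, makes pseudouridine in the box H/ACA particles. NOP56 had 395, 376 and 371 CPM in control cells and 394, 401 and 402 CPM in IL17D-overexpressing cells, and the log2 fold change was 0.068 (SE 0.033, edgeR adjusted p = 0.431). Control replicate 1 of NOP56 lay above IL17D replicate 1. NOP58 had 104, 106 and 114 CPM in control cells and 114, 108 and 117 CPM in IL17D-overexpressing cells, which overlapped, with a log2 fold change of 0.063 (SE 0.047, edgeR adjusted p = 0.681). FBL had 212, 211 and 211 CPM in control cells and 208, 201 and 230.1 CPM in IL17D-overexpressing cells. The IL17D-overexpressing values of FBL lay on both sides of the control values, its log2 fold change was 0.011 (SE 0.041, edgeR adjusted p = 0.958), and it turned negative, -0.045, without IL17D replicate 3. DKC1 had a log2 fold change of 0.025.

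Small subunit processing was represented by 6 members, all above 0 (median 0.046), all with overlapping groups and none called at an unadjusted p under 0.05. WDR43, a part of the small subunit processome, had 125, 133 and 135 CPM in control cells and 145, 144 and 129 CPM in IL17D-overexpressing cells, and the log2 fold change was 0.086 (SE 0.046, edgeR adjusted p = 0.491). For WDR43, IL17D replicates 1 and 2 stood above all controls and IL17D replicate 3 lay among them. BYSL, bystin, which is needed for maturation of the small subunit, had 48.5, 43.4 and 43.4 CPM in control cells and 53.5, 42.1 and 47.4 CPM in IL17D-overexpressing cells, and the log2 fold change was 0.080 (SE 0.072, edgeR adjusted p = 0.747). The values of BYSL were the most scattered of this group, with the highest and the lowest both in IL17D-overexpressing cells, and without IL17D replicate 1 its log2 fold change was -0.013. RRP9 of the U3 snoRNP, IMP4, which works with it, UTP20 of the processome, and RRP12, which helps pre-ribosomes leave the nucleus, had log2 fold changes of 0.041, 0.040, 0.050 and 0.025.

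Assembly of the large subunit gave the largest median, 0.095 over 9 members, with 7 above 0 and 2 below. BOP1, which forms a complex with PES1 and WDR12 that is needed for processing of large subunit RNA, had 236, 247 and 221 CPM in control cells and 255, 251 and 259.9 CPM in IL17D-overexpressing cells, without overlap, and the log2 fold change was 0.12 (SE 0.039, edgeR adjusted p = 0.126). For the other proteins of this complex the log2 fold change was 0.035 for PES1 and -0.0097 for WDR12, both with overlapping groups. The differences between these genes were not tested. RRS1, which helps to build the 5S ribosomal RNA into the subunit, had 92.3, 94.1 and 85.9 CPM in control cells and 99.9, 96.2 and 101 CPM in IL17D-overexpressing cells, again without overlap, and the log2 fold change was 0.12 (SE 0.048, edgeR adjusted p = 0.265). RRS1 had the largest log2 fold change of the 32 well counted members. For BOP1 and RRS1 control replicate 3 was the lowest library. The assembly factors URB2, NOP16 and NIP7 had log2 fold changes of 0.11, 0.095 and 0.078, with overlap between the groups. NOP2 had 1.17, 2.14 and 0.746 CPM in control cells and 1.52, 1.70 and 1.68 CPM in IL17D-overexpressing cells, and its log2 fold change of 0.29 (SE 0.355, edgeR adjusted p = 0.84), the highest of all members, rested on few counts and was -0.0064 without control replicate 3. PPAN had 5.17, 4.77 and 2.92 CPM in control cells and 4.50, 3.71 and 4.13 CPM in IL17D-overexpressing cells, and its log2 fold change was the lowest of all members at -0.057 (SE 0.207, edgeR adjusted p = 0.957), but above 0 without control replicate 1, control replicate 2 or IL17D replicate 2.

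The last group, labelled outside the ribosome pathway in the figures, held 5 members not assigned to a step of ribosome assembly. This grouping does not exclude a role in that pathway. In the group, 3 members were called higher at an unadjusted p under 0.05 and 2 had log2 fold changes below 0. CAD, which starts the synthesis of pyrimidine nucleotides, had 269, 274 and 269 CPM in control cells and 292, 284 and 287 CPM in IL17D-overexpressing cells, and the log2 fold change was 0.090 (SE 0.034, edgeR adjusted p = 0.256). ODC1, the first enzyme of polyamine synthesis, whose window holds a pair of E-boxes, had 232, 225 and 228 CPM in control cells and 249.7, 238 and 242 CPM in IL17D-overexpressing cells, and the log2 fold change was 0.093 (SE 0.036, edgeR adjusted p = 0.277). HSPD1 had 1068, 1067 and 1091 CPM in control cells and 1101, 1143 and 1134 CPM in IL17D-overexpressing cells, and the log2 fold change was 0.066 (SE 0.028, edgeR adjusted p = 0.323). The groups did not overlap for CAD, ODC1 or HSPD1. SRM, spermidine synthase, acts after ODC1 in the same pathway and also has a CACGTG. It had 108, 109.9 and 107 CPM in control cells and 109, 108 and 107 CPM in IL17D-overexpressing cells, which overlapped closely, with a log2 fold change of -0.0076 (SE 0.044, edgeR adjusted p = 0.98). PA2G4, a growth-regulating protein that binds ERBB3, had the most negative log2 fold change of the well counted members, -0.037, and IL17D replicate 3 was its lowest library.

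**Figure D5:**
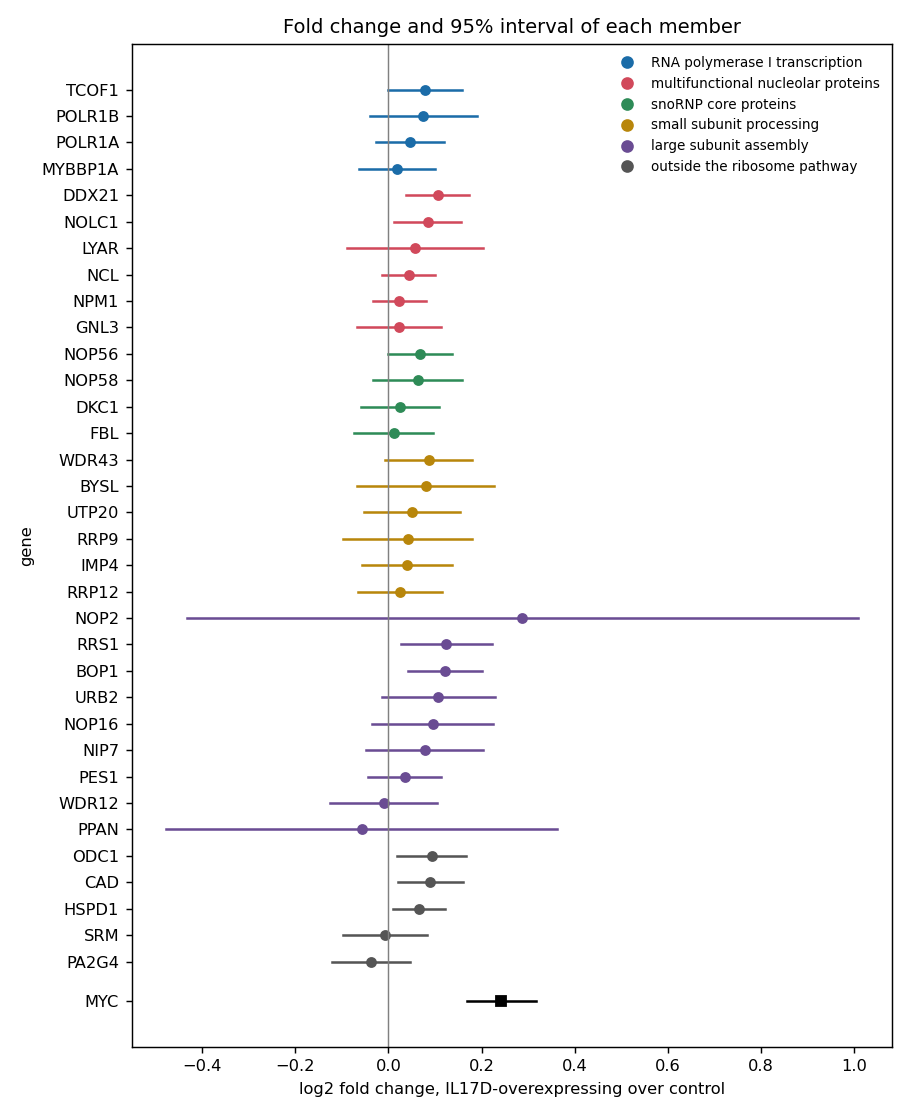
Log2 fold change of IL17D-overexpressing over control cells (points) with its 95% interval (lines) for each member, grouped and coloured by role, with MYC as a black square. The intervals of 8 members lie above 0 before adjustment for the number of genes tested, and that of MYC lies above the points of all members but NOP2.

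Further genes of the pathway, 132 in 4 lists, also lay mostly on this side. Of the 131 that were tested, 95 had a log2 fold change above 0 (72.5%) and 36 below, with a median of 0.046. The lists, like the members, were chosen with earlier results of these data known, so they are not an independent check. At an unadjusted p under 0.05, edgeR called 14 higher (10.7%) and 2 lower, against 5.59% and 5.99% of all tested genes. Among the 5853 tested genes with at least the control level of LYAR, 8.47% were called higher. The groups did not overlap for 19 of them with IL17D-overexpressing cells higher, and for 4 with these cells lower, namely PIH1D1, ZNHIT3, WDR46 and EFL1. Over all tested genes the shares without overlap were 7.48% higher and 8.31% lower. With IL17D-overexpressing cells higher, the share was 10.1% of the 5853 better counted genes and 14.5% of the 131 pathway genes. The pathway genes were not cut at the level of LYAR, and some lay under it, such as ZNRD1 with 5.94 CPM in control cells. A single gene of the 4 lists passed at an adjusted p under 0.05. URB1, a large subunit assembly factor, had 150.3, 142 and 142 CPM in control cells and 168, 164 and 160.4 CPM in IL17D-overexpressing cells, without overlap, and the log2 fold change was 0.18 (SE 0.041, edgeR adjusted p = 0.0137). URB1 missed the threshold when IL17D replicate 1 (edgeR adjusted p = 0.115) or control replicate 2 (0.0921) was left out, and the lowest adjusted p of any alternative was 0.00892.

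By list, 38 of 48 other large subunit assembly factors were above 0 (median 0.055), 35 of 51 small subunit processing factors (median 0.048), 14 of 19 RNA polymerase I factors (median 0.021) and 8 of 13 snoRNP factors (median 0.020). Beside URB1, the smallest p of the large subunit list among higher genes was that of the helicase DDX51 (log2 fold change 0.16, edgeR adjusted p = 0.246). Among the lower genes they were EFL1 (-0.080, adjusted p = 0.728 in edgeR) and RPF1 (-0.090, adjusted p = 0.802 in edgeR). In the small subunit list, NOL11 and WDR75, both of the processome's early transcription-coupled part, had log2 fold changes of 0.12 and 0.14 (edgeR adjusted p = 0.23 and 0.264), and WDR46 and NOP9 had -0.10 and -0.047 (edgeR adjusted p = 0.605 and 0.838). Of the polymerase list, POLR1C and POLR1D, subunits that RNA polymerases I and III have in common, had 0.23 and 0.11 (edgeR adjusted p = 0.417 and 0.461), and POLR2K and ZNRD1 had -0.16 and -0.17 (edgeR adjusted p = 0.404 and 0.765). Of the snoRNP list, NAF1 and GAR1, both of the box H/ACA pathway, had 0.15 and 0.070 (edgeR adjusted p = 0.46 and 0.824). PIH1D1, of the complex that helps to assemble box C/D particles, and ZNHIT3 had -0.17 and -0.083 (edgeR adjusted p = 0.25 and 0.729), and both were lower in all IL17D-overexpressing libraries than in any control library.

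Some members also carry snoRNA genes within their bounds, a property the choice of members did not use. Of the 34, 8 hold at least 1 snoRNA gene on their own strand (23.5%), namely NCL, GNL3, NOP56, NOP58, DKC1, WDR43, PPAN and ODC1, against 1.62% of 12800 tested protein-coding genes. They hold 26 snoRNA genes in all, led by GNL3 with 6 and NOP56 with 5. Only 12 of these 26 had any count, 256 counts in all over the 6 libraries. SNORA51 in NOP56, SNORA56 in DKC1, SNORD19B in GNL3 and RF00575 in NOP58 share bases with host exons and had no count. Whether reads there were left uncounted, and how well the libraries captured snoRNA, was not tested. The counts therefore do not give snoRNA levels. Of the 26, 1 had enough counts to be tested, RF00569 in GNL3 with 23 counts in control and 26 in IL17D-overexpressing cells, and its log2 fold change was 0.17 (SE 0.558, edgeR adjusted p = 0.950). The 8 host genes had a median log2 fold change of 0.053 and the other 26 members 0.062.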

How the data were processed

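RNA-seq of 3 control and 3 IL17D-overexpressing A549 libraries was analysed. The authors deposited 1 table of raw read counts per gene, without normalization, with symbols, coordinates, biotypes and gene lengths. The submitters' processing notes name hg38 and Bowtie2, and the counting tool is not given in the sources used here. The labels and the methods name different Illumina sequencers. All per-sample columns were used.

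Counts were filtered by edgeR's filterByExpr, scaled by TMM and compared with the quasi-likelihood test (two-sided, Benjamini-Hochberg over 15754 genes), and the code was checked on simulated data. CPM are TMM-scaled, divided by exon length for CPM per kb. SE was derived from the F statistic and 95% intervals from its degrees of freedom. Members and lists were chosen with earlier results of these data known. All members are named. The 2 with the smallest p per role, the highest per length and the extremes of fold change are given in every library, and others were added after their values were seen. In the pathway lists, genes past the threshold and the 2 with the smallest p in each direction are named. Software was R 4.3.3, edgeR 4.0.16, limma 3.58.1, DESeq2 1.42.0 and Python 3.11.15. Alternatives were other scalings, tools and filters, the replicate block, added pseudogene counts and leaving out each library.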

Additional observations from a re-analysis of the deposited data

How the results depend on the processing

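The picture of the members changed little with the processing. Under the 8 alternatives that kept all libraries, 30 of 34 members had a log2 fold change above 0 in each, the median lay between 0.057 and 0.061, 7 to 9 members had an unadjusted p under 0.05, and no member had an adjusted p under 0.05. Without NOP2 and PPAN, an alternative chosen after seeing the data, the median was 0.060 over 32 members, 29 of them above 0. The scalings shifted the median of all tested genes from -0.00044 under TMM to -0.0034 under total counts and 0.0011 under DESeq2's size factors. Leaving out 1 library at a time gave 29 to 31 members above 0, a median of 0.052 to 0.062, 5 to 9 members with an unadjusted p under 0.05 and 0 to 1 with an adjusted p under 0.05, DDX21 without control replicate 3. Over all tested genes it gave 69 to 129 genes higher and 76 to 138 lower at an adjusted p under 0.05, against 106 and 143 with all libraries, with the fewest without IL17D replicate 3. The lower genes numbered 79 without IL17D replicate 1 and 95 without control replicate 2. The sign turned in 8 members for at least 1 library left out, over ranges of -0.00066 to 0.037 for MYBBP1A, -0.045 to 0.052 for FBL, -0.013 to 0.16 for BYSL, -0.037 to 0.016 for WDR12, -0.0064 to 0.76 for NOP2, -0.27 to 0.11 for PPAN, -0.014 to 0.0034 for SRM and -0.062 to 0.0045 for PA2G4. The cause was not tested. The log2 fold change of MYC lay between 0.23 and 0.25 over all alternatives, with an adjusted p of 2.5e-07 to 0.0017. With 3 libraries a group, the standard error of a log2 fold change was 0.028 to 0.072 for the 32 well counted members, beside a median difference of 0.060. The replicate numbers were not found to pair the libraries: correlations of the deviations of same-numbered libraries were -0.015 to 0.010, and 0 of 6 libraries correlated best with its own number. The replicate block gave 7 members with an unadjusted p under 0.05 and 272 calls over all genes at an adjusted p under 0.05, against 249.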
